A study of Mus musculus with 8 samples.

Results

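The 10 genes that mark successive steps from oligodendrocyte precursor to myelinating oligodendrocyte were followed in total RNA of whole mouse cerebellum. They were found by gene symbol in the count tables, and all 10 were present among the 17700 genes listed. The old group held 4 C57BL/6JN mice aged 93, 83, 83 and 102 weeks (old 1 to 4), and the young group held 4 mice of the same strain aged 19, 19, 19 and 22 weeks (young 1 to 4). Each group had 2 males and 2 females, and none of the labels names a treatment or an altered allele. Cerebellum is the tissue on every sample label, whereas the series' design text names liver and other age ranges. Tissue and ages are given here as on the sample labels. Each library held 6079485 to 7236720 counts. The comparison of old with young mice asks how transcript levels differ by age.

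Oligodendrocyte precursors are glia that persist in the adult brain, divide in response to platelet-derived growth factor and give rise to the cells that wrap axons in myelin. A precursor that leaves the cycle passes through a committed, premyelinating stage, in which a set of transient genes is switched on, before the genes of compact myelin follow. Among the 10 genes, Pdgfra, Cspg4 and Lhfpl3 mark precursors. Gpr17, Bmp4, Neu4, Enpp6 and Bcas1 mark committed and newly forming cells, and Sox10 and Myrf are transcription factors of the lineage.

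All 10 genes had enough counts to be tested, and all 10 were detected in each of the 8 libraries. Levels are given as CPM, counts scaled to a TMM-adjusted library total of 1000000, and 3 counts corresponded to 0.421 to 0.511 CPM. Per kilobase of annotated exon, the mean level over the 8 libraries was highest for Bcas1, at 45.0 CPM per kb. It was 11.4 for Lhfpl3, 11.0 for Sox10, 6.76 for Myrf, 5.50 for Gpr17 and 4.74 CPM per kb for Pdgfra. It was 2.34 for Enpp6, 1.95 for Bmp4, 1.65 for Cspg4 and 1.47 CPM per kb for Neu4. In these bulk samples, fewer cells of a type and less RNA per cell cannot be told apart.

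The tissue and its cell types were checked against marker lists. The 10 granule neuron markers summed to 4442 to 6178 CPM in old and 4873 to 7519 CPM in young libraries, and the 7 liver genes to 2.84 to 84.2 CPM in old and 0.682 to 21.2 CPM in young libraries. Alb, the liver albumin gene, was highest in old 2, at 30.4 CPM, and Ttr, the transthyretin gene of choroid plexus, ranged over the libraries between 1.57 and 422 CPM. Old 3, young 3 and young 4 held the 3 lowest Ttr levels. The part of such tissue in the values below was not tested.

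Gpr17 had the smallest unadjusted p of the 10 genes in the comparison of old with young cerebellum. It encodes a G protein-coupled receptor that appears for a short time in committed precursors and, in mice, restrains their maturation. Its level was 22.0, 16.6, 18.9 and 27.1 CPM in old mice 1 to 4, and 34.9, 43.0, 42.9 and 23.3 CPM in young mice 1 to 4. Old 1, old 2 and old 3 lay below each of the young ones, and the groups overlapped only because young 4 lay below old 4. The means were 21.1 ± 4.58 CPM in old and 36.0 ± 9.30 CPM in young mice (SD, n = 4 each). The log2 fold change was -0.76 ± 0.22 (SE), a ratio of old to young of 0.590, with a 95% interval of -1.25 to -0.27 on the log2 scale. By edgeR's quasi-likelihood test with a term for sex, the unadjusted p was 0.00610 and the Benjamini-Hochberg adjusted p over all 14191 genes tested was 0.241, so Gpr17 did not pass the threshold of 0.05.

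None of the other 9 genes passed either. With edgeR 0 of the 10 genes passed an adjusted p of 0.05, where 0.12% of all genes tested passed, and DESeq2 and limma-voom each called 0 of the 10. One of the 10, Gpr17, had an unadjusted p under 0.05 with a lower value in old mice, against 5.76% of all genes tested. No gene of the 10 had old and young libraries that did not overlap, against 6.57% of all genes tested. The median log2 fold change over the 10 genes was 0.04, beside -0.01 over all genes tested, and 3 of the 10 had negative values, where 51.4% of all genes did. These last counts rest on single libraries, since all 10 genes had negative values without young 4 and 2 had them without young 2. Without young 4, Gpr17 was at -0.95 with an adjusted p of 0.0771 by edgeR.

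**Figure D1:**
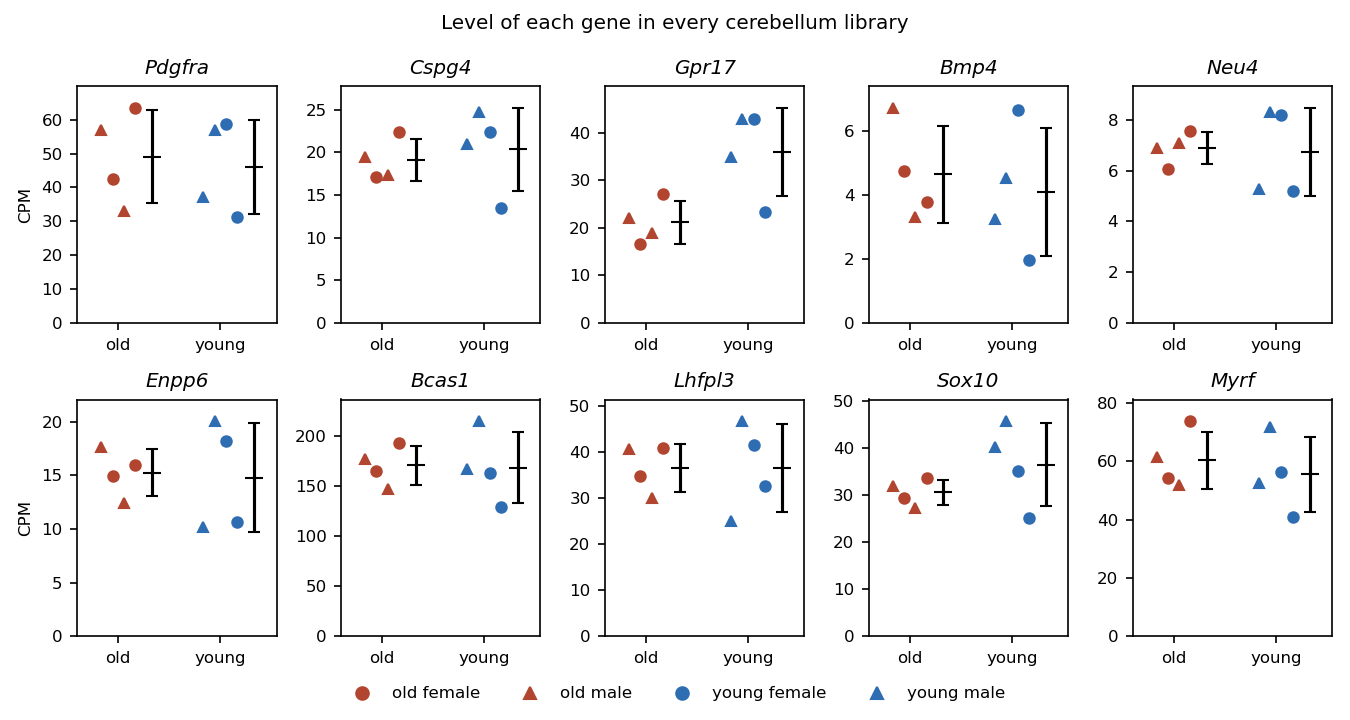
Level in CPM (linear axis from 0) of each of the 10 genes in every library, with old at the left and young at the right of each panel. Circles are females and triangles males, and the bar beside each group is its mean ± SD (n = 4). Gpr17 sits at 16.6 to 27.1 CPM in old and 23.3 to 43.0 CPM in young libraries, and in every panel the groups overlap.

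None of the 3 precursor genes passed the test. Pdgfra, the receptor tyrosine kinase through which platelet-derived growth factor drives precursor division, was at 57.0, 42.5, 33.2 and 63.6 CPM in old mice 1 to 4 and 37.1, 56.9, 58.6 and 31.3 CPM in young mice 1 to 4. The values were widely spread within each age, and old and young values were interleaved. Its log2 fold change was 0.10 ± 0.27 (SE), with a 95% interval of -0.54 to 0.73. Cspg4, which encodes the proteoglycan NG2 of precursors and pericytes, averaged 19.1 ± 2.46 CPM in old and 20.4 ± 4.87 CPM in young mice (SD, n = 4 each), a log2 fold change of -0.08 ± 0.18 (SE). Lhfpl3, a tetraspan membrane protein gene, averaged 36.6 ± 5.22 CPM in old and 36.5 ± 9.58 CPM in young mice (SD, n = 4 each). The 95% interval of its log2 fold change ran from -0.41 to 0.42.

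Apart from Gpr17, the genes of committed and newly forming cells had small mean differences between the ages. Enpp6, a choline-specific phosphodiesterase of newly forming oligodendrocytes, was at 17.6, 15.0, 12.4 and 15.9 CPM in old mice 1 to 4, and at 10.2, 20.1, 18.2 and 10.7 CPM in young mice 1 to 4. All old values lay within the range of the young ones. Its log2 fold change was 0.05, with a 95% interval of -0.46 to 0.57. Neu4, a sialidase gene, averaged 6.90 ± 0.637 CPM in old and 6.74 ± 1.74 CPM in young mice (SD, n = 4 each), and its 95% interval was -0.42 to 0.51. Bcas1, a marker of early myelinating cells, averaged 171 ± 19.4 CPM in old and 169 ± 35.4 CPM in young mice (SD, n = 4 each), and its 95% interval was -0.28 to 0.34.

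Bmp4, a ligand of the bone morphogenetic protein family whose signal holds back oligodendrocyte differentiation, was the least abundant of the 10 by CPM. It had 42, 33, 21 and 24 counts in old mice 1 to 4, and 21, 29, 39 and 14 counts in young mice 1 to 4. Its log2 fold change of 0.21 carried the widest 95% interval of the 10, -0.58 to 1.001.

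The transcription factors also did not pass the test. Sox10, which specifies and maintains the lineage and acts upstream of Myrf and the myelin genes, was at 31.9, 29.5, 27.4 and 33.6 CPM in old mice 1 to 4, and at 40.2, 45.8, 35.1 and 25.1 CPM in young mice 1 to 4. Young 1, young 2 and young 3 lay above all old libraries and young 4 lay below them. Its log2 fold change was -0.24 ± 0.15 (SE), with an adjusted p of 0.609 by edgeR. Myrf, a membrane-anchored factor that is cleaved to release the activator of myelin genes, averaged 60.3 ± 9.79 CPM in old and 55.4 ± 12.7 CPM in young mice (SD, n = 4 each), a log2 fold change of 0.13 ± 0.17 (SE) and an adjusted p of 0.816 by edgeR.

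**Figure D2:**
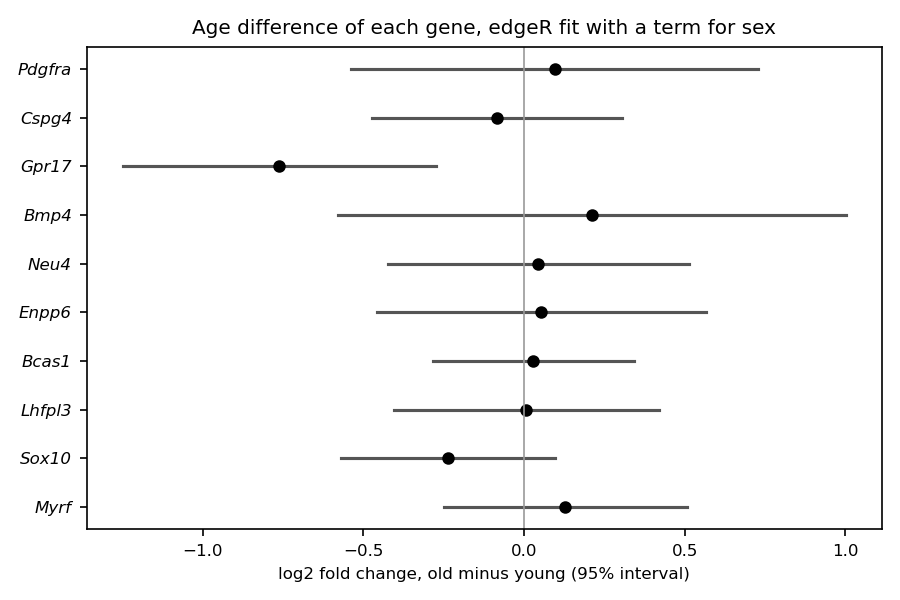
Log2 fold change of each gene, old minus young, from the edgeR fit with a term for sex. Points are estimates and lines are 95% intervals. The Gpr17 interval, -1.25 to -0.27, lies to the left of 0, and the other 9 intervals include 0.

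The libraries differed in their content of the whole lineage, at both ages. The summed level of the 10 genes was 441, 386, 348 and 482 CPM in old mice 1 to 4, and 397, 537, 453 and 314 CPM in young mice 1 to 4. The 24 genes of mature oligodendrocytes, none of them among the 10, summed to 5782, 5282, 4760 and 6269 CPM in old mice 1 to 4, and to 5269, 7249, 6212 and 4389 CPM in young mice 1 to 4. Both sums put the libraries in the same order, except that old 2 and young 1 changed places. Young 2 held the highest level of 7 of the 10 genes and young 4 the lowest of 7. The granule neuron markers ran the other way at the ends of that order, with 7519 CPM in young 4, the highest of the 8, against 4873 CPM in young 2. How the tissue was cut and how its cell types were represented in each piece were not tested.

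**Figure D3:**
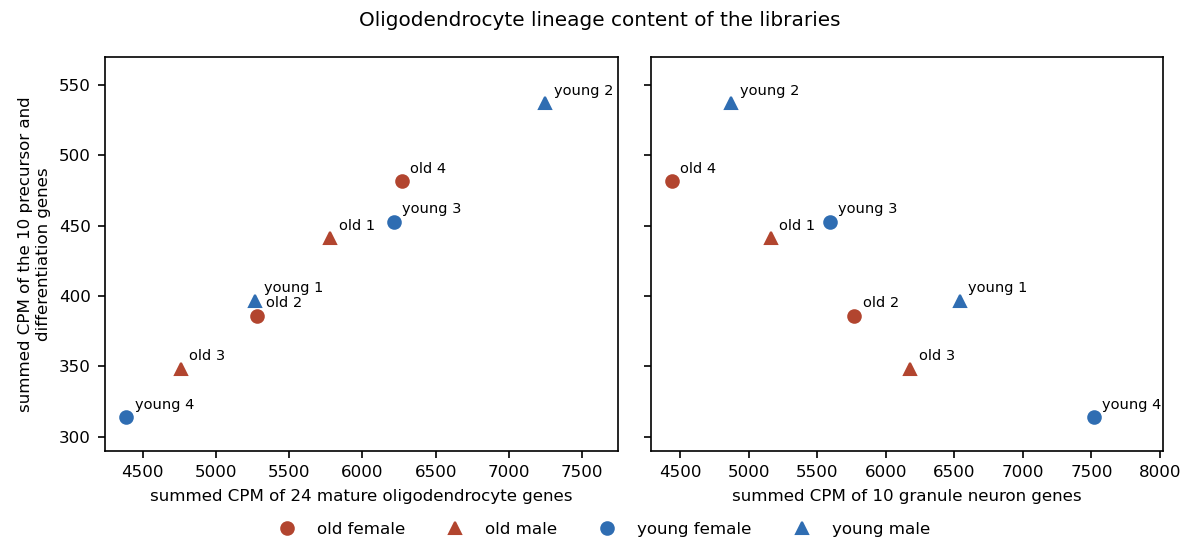
Summed CPM of the 10 precursor and differentiation genes (vertical axis) against the summed CPM of 24 mature oligodendrocyte genes (left) and of 10 granule neuron genes (right), 1 point per library and neither axis starting at 0. Old libraries are red and young libraries blue, with circles for females and triangles for males. Young 2, at 537 CPM, and young 4, at 314 CPM, are the extremes of the vertical axis and lie within the same age group.

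Because this content differed between libraries, each gene was also expressed per 1000 counts of the 24 mature oligodendrocyte genes of the same library. This ratio, which does not depend on library scaling, was chosen after the values were seen. Gpr17 had 3.80, 3.13, 3.96 and 4.33 counts per 1000 mature counts in old mice 1 to 4, and 6.62, 5.93, 6.91 and 5.31 in young mice 1 to 4. All old values lay below all young ones. The means were 3.81 ± 0.501 in old and 6.19 ± 0.721 in young mice (SD, n = 4 each), a ratio of 0.615. Myrf had 10.6, 10.3, 10.9 and 11.8 counts per 1000 in old mice 1 to 4, against 9.98, 9.91, 9.08 and 9.33 in young mice 1 to 4, and all its old values lay above all young ones. In the other 8 genes the groups overlapped. By this ratio 0.226% of all other genes tested were lower in old mice without overlap, and 2.7% were higher without overlap.

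The ratio reduced the spread between libraries for each of the 10 genes. For Bcas1 the coefficient of variation over the 8 libraries was 5.79% per mature count, beside 15.6% in CPM, and for Cspg4 it was 7.93% beside 18.5%. For Gpr17 it was 28.0% beside 36.6%, and for Bmp4, the gene of fewest counts, 32.9% beside 38.1%. Pdgfra, with 15.8% beside 27.1%, stayed more variable than the other precursor genes.

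**Figure D4:**
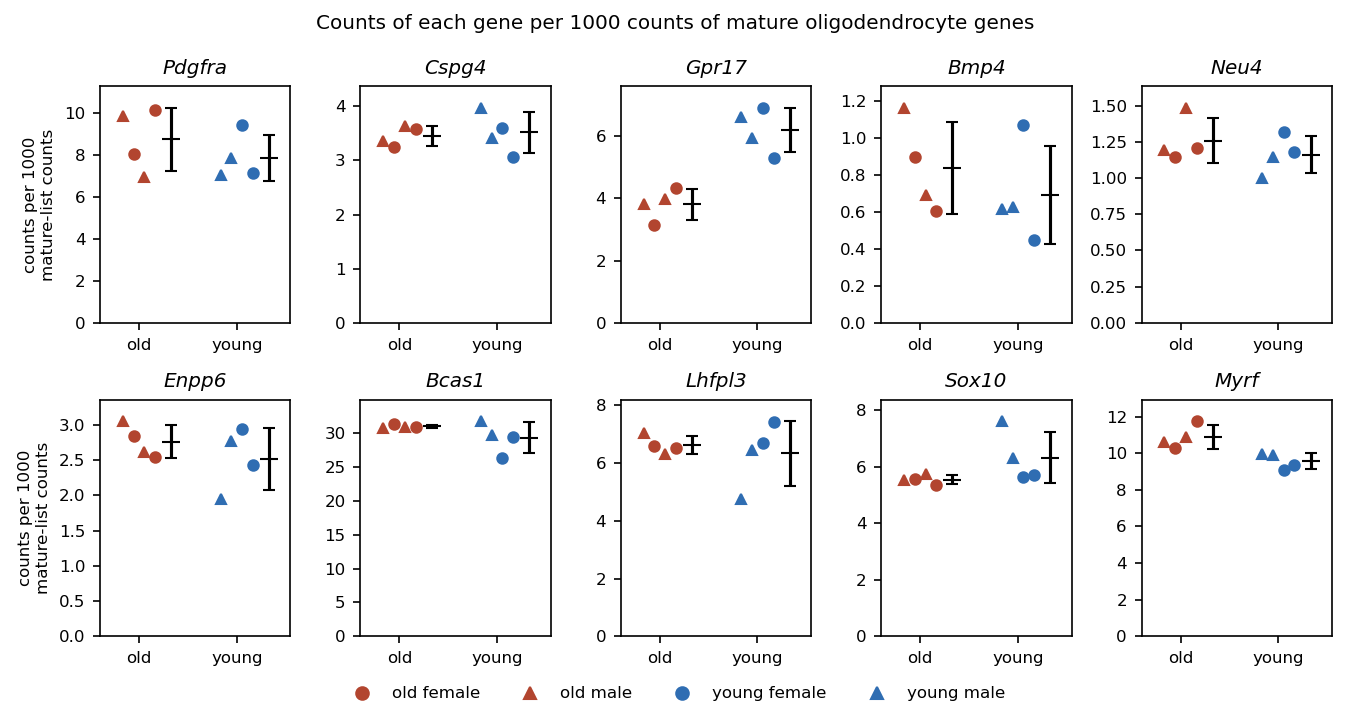
Counts of each gene per 1000 counts of 24 mature oligodendrocyte genes in the same library (linear axis from 0), with old at the left and young at the right. Circles are females, triangles are males, and bars are mean ± SD (n = 4). Old and young libraries separate for Gpr17, at 3.81 in old and 6.19 in young on average, and for Myrf, at 10.9 in old and 9.57 in young.

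The same Gpr17 counts were set against those of the other 9 genes. These ratios share 1 set of Gpr17 counts, so they are not independent of each other or of the values above. The ratio of Gpr17 to Pdgfra counts was 0.386, 0.3898, 0.569 and 0.427 in old mice 1 to 4, and 0.941, 0.755, 0.733 and 0.744 in young mice 1 to 4. The ratio of Gpr17 to Enpp6 counts, both transient genes of the committed stage, was 1.39 ± 0.268 in old and 2.52 ± 0.598 in young mice (SD, n = 4 each). Against 8 of the other 9 genes the old ratios of Gpr17 lay below all young ones, and against Bmp4 they overlapped. Of all other genes tested, the share lower in old mice without overlap was 0.261% against Pdgfra, 0.169% against Cspg4, 0.19% against Lhfpl3, 0.521% against Neu4 and 0.289% against Enpp6. It was 0.557% against Bcas1, 0.0564% against Sox10, 0.958% against Myrf and 0.197% against Bmp4. Among the 36 pairs without Gpr17, 2 did not overlap, and both involve Sox10. Bcas1 per Sox10 was 5.57 ± 0.152 in old and 4.66 ± 0.402 in young mice (SD, n = 4 each), and Sox10 per Myrf was 0.512 ± 0.0385 in old and 0.659 ± 0.0706 in young mice (SD, n = 4 each). Of all other genes tested, 4.14% were higher in old mice without overlap against Sox10, and the share lower against Myrf is the 0.958% above.

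A fit that took the score of the mature oligodendrocyte list as a covariate, added after the values were seen, gave Gpr17 a log2 fold change of -0.69 ± 0.13 (SE) and an adjusted p of 0.0142 by edgeR. It called 1.96% of all genes tested, and Gpr17 was the 1 gene of the 10 among them. With the score of the granule neuron markers in its place, the value was -1.001 ± 0.12 (SE) with an adjusted p of 0.00211, and 0.994% of all genes were called. Without old 2, old 3 and young 4, which were the 3 libraries of highest liver gene sum, Gpr17 had a value of -0.75 and an adjusted p of 0.0175, where 1.28% of all genes were called. With 1 surrogate variable it had -0.86 and an adjusted p of 0.0180, where 0.93% were called. Over all 24 alternative settings its value stayed negative, between -1.001 and -0.58, and its adjusted p lay between 0.00211 and 0.842. Gpr17 passed in only 4 of the 24, which are the 4 given here. Its adjusted p was 0.0545 by DESeq2, 0.188 by limma-voom and, in females only, 0.803 by edgeR.

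Gpr17 lies on chromosome 18 at 31942997 to 31949636 in GRCm38, on the reverse strand, and wholly within the span of Lims2, a focal adhesion adaptor gene read from the opposite strand. Whether counting used strand was not stated in the labels or headers, and without strand reads of both genes cannot be told apart. Lims2 was at 4.97, 4.75, 5.50 and 5.05 CPM in old mice 1 to 4, and at 5.43, 4.08, 5.11 and 3.23 CPM in young mice 1 to 4, well below Gpr17 in each library and with a log2 fold change of 0.20 ± 0.22 (SE). Bmp4, on chromosome 14 at 46383520 to 46390669, overlaps the end of Gm15217, a gene model on the opposite strand that is also in the tables. No gene listed in the tables overlaps the other 8.

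Those other loci, again in GRCm38, are spread over the genome. Pdgfra lies on chromosome 5 at 75152292 to 75198215 and Lhfpl3 on the same chromosome at 22746059 to 23275597. Cspg4 lies on chromosome 9 at 56865033 to 56899870, Enpp6 on chromosome 8 at 46986887 to 47096762, and Neu4 on chromosome 1 at 94020451 to 94028334. Bcas1 lies on chromosome 2 at 170346991 to 170427845, Sox10 on chromosome 15 at 79154908 to 79165240, and Myrf on chromosome 19 at 10208272 to 10240748. These are whole gene spans, and each count covers a gene as a unit.

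Enpp6 and Lhfpl3, of different stages and chromosomes, shared their lowest library, young 1, and their highest, young 2. This is not particular to the pair, since young 2 held the highest level of 7 of the 10 genes. Enpp6 was also nearly as low in young 4, at 10.7 CPM, as in young 1, at 10.2 CPM. Lhfpl3 was at 40.8, 34.8, 30.0 and 40.9 CPM in old mice 1 to 4, and at 25.1, 46.7, 41.6 and 32.5 CPM in young mice 1 to 4. Their promoter stretches are shown because they were the only 2, among the 6 of the 10 genes with a RefSeq promoter entry, that held a searched motif. Each is the 250 bases before the RefSeq start in GRCm38.p6, forward strand, chr8:46986637-46986886 for Enpp6 and chr5:22745804-22746053 for Lhfpl3. Capitals mark ACAATG, a core that SOX factors bind, and CAGCTG, an E-box of the kind bound by basic helix-loop-helix factors such as OLIG2.
Enpp6: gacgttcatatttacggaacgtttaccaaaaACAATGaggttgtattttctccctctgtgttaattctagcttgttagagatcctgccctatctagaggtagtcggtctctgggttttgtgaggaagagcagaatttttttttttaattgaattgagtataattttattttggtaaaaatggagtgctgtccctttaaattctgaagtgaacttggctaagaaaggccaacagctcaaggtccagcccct
Lhfpl3: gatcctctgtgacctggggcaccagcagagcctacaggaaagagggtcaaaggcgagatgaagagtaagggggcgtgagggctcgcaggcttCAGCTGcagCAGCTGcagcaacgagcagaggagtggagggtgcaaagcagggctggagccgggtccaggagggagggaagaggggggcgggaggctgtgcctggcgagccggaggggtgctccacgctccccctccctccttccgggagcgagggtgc

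On both strands of the same window, 10.7% of all 32851 promoter entries held ACAATG, 16.5% held ACAAAG, a second SOX core, and 13% held CAGCTG. Enpp6 had 1 match to ACAATG and Lhfpl3 had 2 to CAGCTG, none of which overlap. The promoters of Pdgfra, Cspg4, Bmp4 and Neu4 held none of the 3 motifs. A match is a run of letters and not a measured binding site.

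Beyond the 10 genes, 18 other precursor genes were tested. The value was negative in 13 of them, where 51.4% of all genes tested had negative values. The median was -0.13, and 0 passed with edgeR, DESeq2 or limma-voom. Where 11% of all genes tested had an unadjusted p under 0.05, 1 of the 18 did. It was Tnr, the matrix protein tenascin R, which averaged 183 ± 4.07 CPM in old and 214 ± 28.3 CPM in young mice (SD, n = 4 each), a log2 fold change of -0.22 ± 0.09 (SE). Ednrb, an endothelin receptor, was at -0.18 ± 0.10 and Sox8, a relative of Sox10, at -0.26 ± 0.15 (SE). None of the 18 had groups without overlap, against 6.57% of all genes tested.

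Of 15 other genes of committed and newly formed oligodendrocytes, 8 had negative values, with a median of -0.01. With any of the 3 tools 0 passed, nor did any have an unadjusted p under 0.05. The shares over all genes tested were 51.4% with negative values and 11% with such a p. Fyn, a kinase that promotes oligodendrocyte differentiation, had a log2 fold change of -0.15 ± 0.08, Bcan, the proteoglycan brevican, -0.16 ± 0.09, and Zfp536, a zinc finger gene, 0.15 ± 0.09 (SE).

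Of the 24 mature oligodendrocyte genes, 15 had negative values, where 51.4% of all genes tested did, and the median was -0.11. With any of the 3 tools 0 passed, while 3 had an unadjusted p under 0.05, against 11% of all genes tested. Trf, the iron carrier transferrin, averaged 71.5 ± 4.72 CPM in old and 90.7 ± 10.1 CPM in young mice (SD, n = 4 each), with no overlap, where 3.42% of all genes tested were lower in old mice without overlap. Apod, a lipid carrier, averaged 109 ± 22.9 CPM in old and 73.0 ± 14.7 CPM in young mice (SD, n = 4 each), a log2 fold change of 0.58 ± 0.17 (SE) and an adjusted p of 0.261 by edgeR. Hapln2, a link protein at nodes of Ranvier, had a value of 0.34 ± 0.13 (SE).

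The pathways that act on these cells likewise had no gene past the threshold by edgeR, DESeq2 or limma-voom. Among 5 genes of platelet-derived growth factors and the receptor Pdgfrb, the ligand Pdgfa averaged 20.1 ± 3.72 CPM in old and 20.1 ± 2.24 CPM in young mice (SD, n = 4 each), and Pdgfrb, the receptor of pericytes, had the smallest p with a log2 fold change of -0.25 ± 0.17 (SE). Pdgfb and Pdgfd, further ligands, had values of 0.18 ± 0.20 and 0.08 ± 0.13. None of the 5 had an unadjusted p under 0.05.

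Of 17 bone morphogenetic protein pathway genes, 10 had negative values, where 51.4% of all genes tested did. The median was -0.01, and 0 passed with any of the 3 tools. Where 11% of all genes tested had an unadjusted p under 0.05, 1 of the 17 did. It was Id1, a target gene of the pathway, at 18.1, 21.3, 23.1 and 19.6 CPM in old mice 1 to 4, and at 17.2, 17.4, 14.7 and 13.0 CPM in young mice 1 to 4. All old values lay above all young ones, as in 3.15% of all genes tested, with a log2 fold change of 0.41 ± 0.13 (SE) and an adjusted p of 0.274 by edgeR. Nog, the secreted inhibitor noggin, was at -0.40 ± 0.27 and the receptor Bmpr2 at 0.12 ± 0.10 (SE).

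A list of 10 genes covered signals and factors that hold back oligodendrocyte differentiation. It mixes inhibitors with feedback genes of the same signals, such as Axin2, so its direction is not a direction of inhibition. Of the 10, 8 had negative values, with a median of -0.22. With any of the 3 tools 0 passed, while 3 had an unadjusted p under 0.05. Over all genes tested, 51.4% had negative values and 11% an unadjusted p under 0.05. Axin2, a feedback gene of Wnt signalling, was at 47.5, 40.6, 43.9 and 34.6 CPM in old mice 1 to 4, and at 63.6, 47.7, 48.4 and 49.8 CPM in young mice 1 to 4. The groups did not overlap, by a margin of under 1 CPM, where 3.42% of all genes tested were lower in old mice without overlap, and the log2 fold change was -0.33 ± 0.11 (SE) with an adjusted p of 0.271 by edgeR. Sox4, a factor of immature neural cells, had a value of -0.29 ± 0.12 and the receptor Notch1 -0.23 ± 0.10 (SE). Several of these genes are also expressed by neurons and astroglia of the cerebellum.

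Proliferation genes were sparse, with 7 of 12 tested, 4 negative values, a median of -0.00 and 0 past the threshold with any of the 3 tools or at an unadjusted p under 0.05. Mki67, a marker of cycling cells, was at 12.7, 3.31, 1.73 and 3.63 CPM in old mice 1 to 4, and at 2.95, 2.82, 2.39 and 1.26 CPM in young mice 1 to 4. Ccna2 and Rrm2, genes of the division cycle, had log2 fold changes of 0.32 ± 0.24 and -0.18 ± 0.34 (SE). The old values of Ccna2 lay above all young ones, as in 3.15% of all genes tested. Ccna2 had 13 to 24 counts per library, and its adjusted p was 0.672 by edgeR.

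Markers of other cells that express some of the 10 genes were examined beside them. The 9 fibroblast and meningeal markers, cells that also express Pdgfra, summed to 111 to 192 CPM in old and 87.0 to 215 CPM in young libraries, and 4 of 9 had negative values. By edgeR 0 of the 9 passed, and 0 did by DESeq2 or limma-voom. At an unadjusted p under 0.05 by edgeR, 3 were higher and 1 was lower in old mice. Over all genes tested, 11% had such a p. Dcn, the proteoglycan decorin, had a log2 fold change of 0.56 ± 0.20, Lum, lumican, 0.49 ± 0.19, and Col3a1, a collagen, -0.80 ± 0.35 (SE). The 9 pericyte markers, cells that also express Cspg4, summed to 257 to 330 CPM in old and 233 to 311 CPM in young libraries, and none of them passed by the 3 tools or had an unadjusted p under 0.05. Their smallest p values belonged to Pdgfrb, given above, and to Anpep and Rgs5, with log2 fold changes of -0.50 ± 0.36 and 0.19 ± 0.14 (SE). The part of these cells in the values of the 10 genes was not tested.

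Over the 8 libraries, the profile of Gpr17 was compared with those of all tested genes of sufficient level by the root mean square difference of mean-centred log2 CPM. The nearest were Wnt7b at 0.177, Socs1 at 0.177, Chrna3 at 0.205, Egflam at 0.213 and Gdf11 at 0.233, where the median over 13235 genes was 0.517. No other gene of the oligodendrocyte lists was among them. The nearest to Myrf were Soat1 at 0.0639, Tmem63a at 0.0816, Mbp, which encodes myelin basic protein, at 0.0834, Bcas1 at 0.0846 and Ankrd45 at 0.0848, with a median over genes of 0.320. The nearest to Sox10 were Depdc7 at 0.0584, Efnb3 at 0.0603, Msmo1 at 0.0762, Fat3 at 0.0777 and Stab2 at 0.0834, with a median of 0.324.

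None of the 10 genes passed for sex by edgeR, where 0.0423% of all genes tested did, and none had an unadjusted p under 0.05, where 4.76% of all genes did. For the interaction of age and sex, 0 of all genes tested passed by edgeR, and 2.3% had an unadjusted p under 0.05, among them Sox10 and Bcas1. Sox10 averaged 31.6 CPM in old and 30.1 CPM in young females, and 29.6 CPM in old and 43.0 CPM in young males, 2 animals each. The age difference in females minus that in males was 0.61 ± 0.26 (SE) on the log2 scale, with an unadjusted p of 0.0385 and an adjusted p of 0.9999 by edgeR. Bcas1 averaged 179 CPM in old and 146 CPM in young females, and 162 CPM in old and 191 CPM in young males, with an interaction of 0.53 ± 0.23 (SE) and an unadjusted p of 0.0452 by edgeR. Young 4, the library lowest in 7 of the 10 genes, is 1 of the 2 young females and young 2, the highest in 7, is 1 of the 2 young males. Gpr17 averaged 21.8 CPM in old and 33.1 CPM in young females, and 20.4 CPM in old and 38.9 CPM in young males.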

How the data were processed

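Total RNA of frozen cerebellum was purified with Trizol and columns with DNase digestion and made into ribosomal RNA-depleted libraries, per the labels' protocols. The authors deposited raw counts per gene symbol, 1 table per library, with no normalization, per the file headers. Tools listed in the submitters' processing notes include featureCounts, STAR 2.7.5b, Trimmomatic 0.39 and SAMtools 1.10, with GRCm38 as the build. For annotation, strand and multiply mapped reads, the settings used were not given in the sources here. Dates had replaced 24 gene names in all tables but 1, so tables were joined by row.

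Genes were kept by filterByExpr with its minimum of 10 counts. Age was tested by quasi-likelihood in edgeR 4.0.16 (R 4.3.3) on TMM-scaled counts with terms for age and sex over 8 libraries, with p-values adjusted by Benjamini-Hochberg over 14191 genes and a threshold of 0.05. Log2 fold changes are old minus young, log2 CPM used a prior count of 2, and each standard error is the size of the log2 fold change divided by the root of its F statistic. The CPM value of 3 counts reflects counting depth only. Each 95% interval was built from this standard error and a t quantile, so it includes variation between animals. On simulated data the fit for age recovered 59.7% of genes changed by a fold of 1.5, 82.1% at 2 and 95.5% at 4, with 11 false calls. Alternatives used DESeq2 1.42.0, limma 3.58.1 and sva 3.50.0. Limma-voom was run with quality weights for the libraries. The score of a list in a library is the median over its genes of mean-centred log2 CPM. Exon lengths and positions came from GENCODE M21, and promoters from RefSeq (GRCm38.p6).

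The 10 genes and all lists were chosen with earlier results of these data known. Besides the 10, the text names up to 3 genes per list by smallest p, the 5 nearest profiles of 3 of the 10 (mean log2 CPM at least 1) and defining markers of other cells. Pdgfa was named in addition, chosen after its values were seen, and Lims2 because it overlaps Gpr17. The ratios to other genes and both score covariates were chosen after seeing the data.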

Additional observations from a re-analysis of the deposited data

How the results depend on the processing

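The number of genes past the threshold for age was 17. It was 36 with unadjusted library totals, 125 by DESeq2, 1 by limma-voom, 26 with edgeR's legacy dispersions, 132 with 1 surrogate variable, 103 with age in weeks, 2 for a fold change of at least 1.5, 1 in females, 0 in males, 184 without old 2, old 3 and young 4, 278 with the mature oligodendrocyte score and 141 with the granule neuron score. Leaving out 1 library gave 0 to 63 genes for age, 4 to 46 for sex and 0 to 2 for the interaction. Of the 10 genes, 3 had negative values. It was 8 with the surrogate variable, 1 in females, 8 in males and 10 with the granule neuron score, and 2 to 10 with 1 library left out. The median of the 10 lay between -0.10 and 0.19 with 1 library left out. Of 238 single-gene values over 24 settings, 193 kept direction and side of the threshold, 41 changed sign and 4, all of Gpr17, newly passed. The sign changed with the surrogate variable for Pdgfra (-0.062), Neu4 (-0.0079), Enpp6 (-0.060), Bcas1 (-0.043) and Lhfpl3 (-0.077), in females for Cspg4 (0.17) and Sox10 (0.089), and in males for Pdgfra (-0.059), Enpp6 (-0.0096), Bcas1 (-0.23), Lhfpl3 (-0.020) and Myrf (-0.13). It changed without old 2, old 3 and young 4 for Neu4 (-0.038), and with the granule neuron score for Pdgfra (-0.21), Bmp4 (-0.034), Neu4 (-0.12), Enpp6 (-0.17), Bcas1 (-0.13), Lhfpl3 (-0.17) and Myrf (-0.076). With 1 library left out, values ran from -0.10 to 0.26 for Pdgfra, -0.26 to 0.014 for Cspg4, -0.95 to -0.61 for Gpr17, -0.074 to 0.60 for Bmp4, -0.088 to 0.18 for Neu4, -0.11 to 0.27 for Enpp6, -0.092 to 0.16 for Bcas1, -0.14 to 0.20 for Lhfpl3, -0.39 to -0.13 for Sox10 and -0.018 to 0.28 for Myrf. The cause of these shifts was not tested. Same-numbered old and young libraries deviated from their group means with correlations of 0.156, -0.222, -0.048 and -0.252 across genes. Differently numbered libraries reached 0.481 (old 1 with young 2) and -0.489 (old 1 with young 4). These values cannot show whether same-numbered animals were handled together, and the main fit used no pairing. With the replicate number as a block, 1 gene passed and Gpr17 was at -0.75 with an adjusted p of 0.842 by edgeR. The ratio of Gpr17 to mature oligodendrocyte counts, old over young, was 0.615. It was 0.632 without the 3 most abundant mature genes, 0.619 with their geometric mean and 0.582 against the other 9 genes. The filter of 50 counts in 4 libraries removed Bmp4 and Neu4.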

Other observations

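Markers of other cerebellar cell types were compared between the ages in the same libraries. The log2 fold change was positive for all 11 microglia markers (median 0.78), which summed to 231 to 460 CPM in old and 140 to 182 CPM in young libraries. With edgeR 0 of the 11 passed and 9 had an unadjusted p under 0.05, where 11% of all 14191 genes tested did. DESeq2 called 5 of the 11 and 125 of all genes tested. The counts by limma-voom were 0 of the 11 and 1 of all genes tested. Trem2, a receptor of activated microglia, averaged 11.5 ± 3.37 CPM in old and 4.91 ± 1.31 CPM in young mice (SD, n = 4 each). Ctss, the lysosomal protease cathepsin S, and C1qb, a complement subunit, had log2 fold changes of 1.24 ± 0.23 and 1.28 ± 0.25 (SE).

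Of 11 astrocyte and Bergmann glia markers, 9 had negative values, where 51.4% of all genes tested did. Fabp7, a brain fatty acid binding protein of radial and Bergmann glia, fell in old mice. It averaged 22.4 ± 4.67 CPM in old and 39.6 ± 5.93 CPM in young mice (SD, n = 4 each), a log2 fold change of -0.82 ± 0.12 (SE) with an adjusted p of 0.0282 by edgeR. The call was kept without old 2 or old 3 and lost without any 1 of the other libraries (old 1, old 4 and young 1 to 4), with values between -0.90 and -0.72 and adjusted p between 0.0385 and 0.180 by edgeR. On all 8 libraries limma-voom called 0 of the 11 markers while DESeq2 called 2. Acsbg1, an acyl-CoA synthetase gene, had -0.47 ± 0.09 and Hopx -0.35 ± 0.13 (SE). The list did not move as 1. By edgeR 3 of the 11 were lower and 1 was higher in old mice at an unadjusted p under 0.05. Over all genes tested, 11% had such a p, and the highest value of the list was 0.71. Of 9 Purkinje cell markers, 8 had negative values, where 51.4% of all genes tested did. By edgeR 0 of the 9 passed and 2 had an unadjusted p under 0.05, against 11% of all genes tested. DESeq2 called 1 of the 9 and limma-voom 0. Gng13, a G protein subunit gene, had -0.41 ± 0.09 (SE). For the 9 choroid plexus markers all values were positive (median 1.12), and the markers summed to 50.8 to 914 CPM in old and 38.0 to 440 CPM in young libraries. With edgeR, DESeq2 and limma-voom 0 of the 9 passed, and none had groups without overlap, against 6.57% of all genes tested. By edgeR 1 of the 9 had an unadjusted p under 0.05, against 11% of all genes tested. Old 3, young 3 and young 4 had the lowest sums.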
